A study of Mus musculus with 6 samples.

Results

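The genes described here are 37 genes of adipocytes, of the lipid droplet and of lipogenesis, the synthesis of fat. They were chosen by name and found in the deposited count table by Ensembl gene ID and GENCODE M21 symbol, and all 37 were found among the 56262 genes listed. The set was proposed with the KO and WT values of these same samples known, so the differences between genotypes are given as a description and no p-value is read from them. RNA-seq was performed on leg muscle of fetal mice at embryonic day 18.5, with 3 WT samples and 3 KO samples. KO fetuses lack *SYISL*, a long noncoding RNA transcribed from within an intron of *Synpo2*, and WT fetuses carry it. Parents of each litter had the same genotype, so KO fetuses had KO mothers and WT fetuses had WT mothers, and the genotype of the fetus and that of its mother cannot be told apart here. The comparison bears on how maternal and fetal loss of *SYISL* relates to muscle formation before birth. The labels give neither the number of litters, nor the sex of the fetuses, nor whether a sample was 1 fetus or a pool, so p-values measure the spread between these samples only.

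Adipocytes store fatty acids as triglyceride in a lipid droplet coated with perilipins and CIDE proteins. Fatty acids reach them by hydrolysis of circulating triglyceride or are made from citrate by ATP citrate lyase, acetyl-CoA carboxylase and fatty acid synthase, then elongated and desaturated, joined to glycerol phosphate, and released again by lipases. In muscle, adipocytes lie between the fibers and arise from fibro-adipogenic progenitors, while the fibers themselves also hold small droplets, so several of these genes are expressed by both kinds of cell.

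Each library held 82054811 to 102233181 counts, and a count of 0 allowed a level of up to 0.0293 to 0.0366 CPM (counts scaled to a common library size), a limit that covers counting error only. Levels are CPM scaled by TMM factors, and means are given with the SD over n = 3 samples per genotype. All 37 genes passed the filter on low counts, and 22071 genes were tested with edgeR's quasi-likelihood test. A gene was called when its Benjamini-Hochberg adjusted p was under 0.05 and its fold change over 1.5, and the log2 fold changes are KO over WT. Related genes and cell markers outside the set, given below with adjusted p-values, were also chosen with earlier results of these data known. Some were named because their change was the largest of their list, so their p-values are a description and not independent support. Gene positions are those of GENCODE M21 on GRCm38. The annotation used here has no gene with the symbol of *SYISL*, so its loss could not be read from the table. Its host gene *Synpo2* had 135 ± 4.21 CPM in WT and 214 ± 18.9 in KO samples (log2 fold change 0.66, SE 0.0632, edgeR adjusted p = 2.89e-05). Over all genes tested the median log2 fold change was -0.0041. Between replicates of the same genotype, chi-square averaged 4.85 to 32.9 per gene where counting alone would give about 1, so no library was a copy of another. WT replicate 2 stood apart from the other WT samples for many of the 37 genes, and the fold changes without it are given below for the genes called with a log2 fold change over 2 in either direction and for *Cebpa* and *Dgat2*.

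Of the 37 genes, 21 were called higher in KO, 3 were called lower and 13 were not called. Over all genes tested, 8.31% were called higher, 8.39% lower and 16.7% in either direction. Because the set was chosen with this contrast in view, nothing is read from the difference between these shares. The median log2 fold change of the 37 genes was 0.95. All KO samples were above all WT samples for 25 genes and below them for 7, so 32 genes did not overlap, where 55.9% of all genes tested did not. The 5 genes with overlapping values were *Pnpla3*, *Me1*, *Acaca*, *Fasn* and *Scd2*. Summed over the 37 genes, the level was 2340.1, 2465 and 2499 CPM in the WT samples and 4115, 4358 and 4384 CPM in the KO samples. Of these sums, *Car3*, which muscle fibers also express, made up 480 ± 47.7 CPM in WT and 1290 ± 108 CPM in KO samples. The 6 adipocyte markers *Adipoq*, *Cfd*, *Plin1*, *Cidec*, *Lep* and *Retn* made up 19.8, 7.03 and 25.6 CPM and 137, 158 and 155 CPM. These 6 were picked from the 37 genes with earlier results of these data known, and all 6 were called higher. Their sums describe these 6 genes only, since *Cebpa* and *Dgat2*, also of the 37, were called lower. In tissue RNA, more adipocytes, more RNA per adipocyte and RNA of other cells, such as muscle fibers, cannot be told apart.

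**Figure D1:**
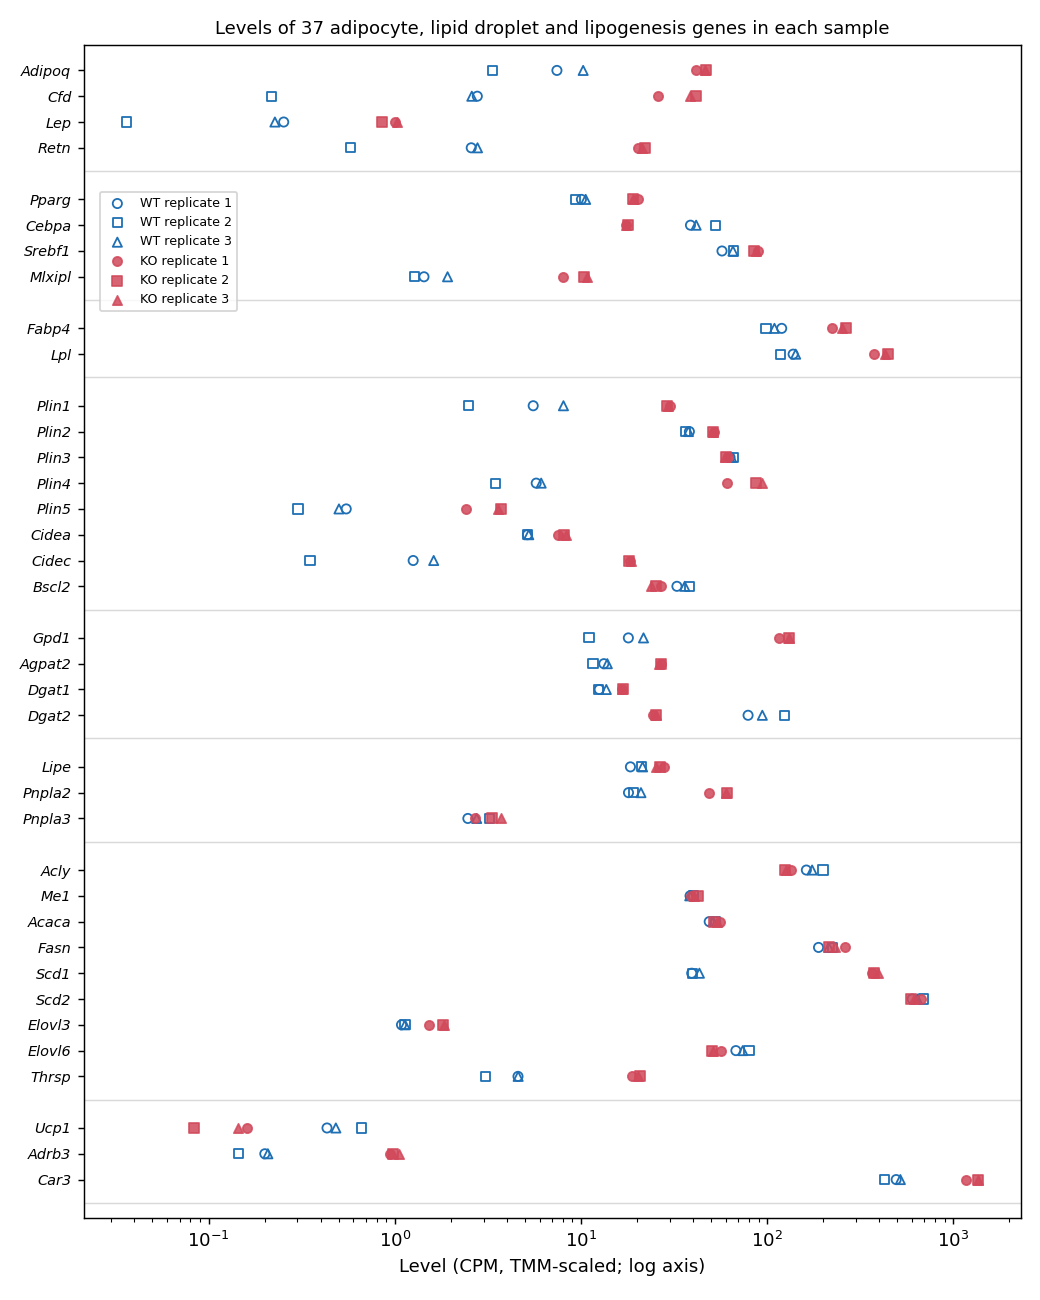
Level of each of the 37 genes in each sample, in TMM-scaled CPM on a log axis, with open blue symbols for the 3 WT samples and filled red symbols for the 3 KO samples (circle, square and triangle for replicates 1, 2 and 3). The red symbols lie to the right of the blue ones for 25 genes and to the left for 7, and the blue squares of WT replicate 2 lie far left for *Cfd*, *Lep*, *Retn*, *Plin1* and *Cidec*.

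All 4 adipokines, the hormones and secreted proteins of adipocytes, were called higher in KO, with a median log2 fold change of 3.02. *Adipoq* (ENSMUSG00000022878.5, chr16:23146536-23158028) encodes adiponectin, a hormone made almost only by adipocytes. Its level was 7.43, 3.36 and 10.3 CPM in WT replicates 1, 2 and 3 and 41.6, 46.9 and 46.2 CPM in the KO replicates. Every KO sample was thus above every WT sample, and the lowest WT sample was replicate 2. Means were 7.03 ± 3.48 and 44.9 ± 2.87 CPM, a log2 fold change of 2.66 (SE 0.291), and 2.34 without WT replicate 2. *Cfd* (ENSMUSG00000061780.6, chr10:79890853-79892655) encodes adipsin, a serine protease of the complement pathway secreted by fat. It was counted 263, 18 and 274 times in the WT libraries and 2439, 3970 and 3736 times in the KO libraries, which is 2.78, 0.218 and 2.59 CPM and 26.01, 41.6 and 38.4 CPM. The change was a log2 fold change of 4.21 (SE 0.502), the largest of the 37 genes, and 3.72 without WT replicate 2, whose value was only 0.0811 of the mean of the other WT samples. *Retn* encodes resistin, a small hormone of mouse adipocytes, and had 2.58, 0.581 and 2.78 CPM in WT samples and 20.1, 21.97 and 21.3 CPM in KO samples (log2 fold change 3.39, SE 0.365, and 2.98 without WT replicate 2). *Lep* encodes leptin, the hormone that signals the size of the fat stores. Its counts were low, at 24, 3 and 24 in WT and 94, 81 and 100 in KO, and the value of WT replicate 2 lay at the limit that a count of 0 allows. The log2 fold change of *Lep* was 2.42 (SE 0.373), and 1.99 without WT replicate 2. All 4 thus remained higher by more than 1.5-fold without this sample.

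The 4 transcription factors went in different directions. *Pparg*, the nuclear receptor that drives adipocyte differentiation, had 10.1, 9.36 and 10.6 CPM in WT samples and 20.2, 18.97 and 19.1 CPM in KO samples. Its samples lay close together within each genotype and apart between them, with a 1.94-fold change (log2 fold change 0.95, SE 0.0642). *Mlxipl* encodes ChREBP, the factor that switches on lipogenic genes when glucose is abundant, and had 1.44, 1.28 and 1.92 CPM in WT samples and 7.999, 10.4 and 10.7 CPM in KO samples (log2 fold change 2.64, SE 0.161, and 2.52 without WT replicate 2). *Srebf1*, whose product SREBP1 acts on lipogenic genes under insulin, had 62.8 ± 4.84 CPM in WT samples and 87.3 ± 2.28 CPM in KO samples, a 1.39-fold difference that was under the 1.5-fold needed for a call although all KO samples were the higher ones. *Cebpa* (ENSMUSG00000034957.10, chr7:35119293-35121928), which acts with *Pparg* in adipocytes and is also expressed in epidermis and liver, was lower in KO. It had 38.8, 53.1 and 41.6 CPM in WT samples and 17.5, 17.99 and 17.5 CPM in KO samples, so every KO sample was below every WT sample. WT was 2.52-fold above KO (log2 fold change -1.33, SE 0.102), and the highest WT sample was replicate 2, without which the log2 fold change was -1.19.

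Promoters are shown for some genes of the set that hold letters bound by these factors, since *Pparg*, *Cebpa* and *Mlxipl* themselves moved in different directions. RefSeq windows of 250 bases before the start site (build GRCm38.p6) were found for 26 of the 37 genes, 37 windows in all, and for *Dgat1*, *Cidea*, *Scd2*, *Car3*, *Adrb3*, *Gpd1*, *Lpl*, *Elovl3*, *Fabp4*, *Dgat2* and *Scd1* none was matched. The letters TTGCNNAA, a form of the C/EBP site, were searched on both strands, as were all letters below and without regard to overlap between them, and were present in 4 of the 37 windows (10.8%), those of *Cidec*, *Lep*, *Plin1* and *Pparg*, and in 9.56% of all 32851 windows. An E-box, CACGTG, the core of the site of ChREBP and SREBP1, was present in 2 windows (5.41%), of *Lipe* and *Mlxipl*, and in 6.02% of all windows. The *Lipe* window is not shown. The sterol element TCACNCCAC was present in 1 window, of *Mlxipl* (2.70%, and 1.05% of all windows). CCAAT was present in 15 windows (40.5%, and 33.8% of all windows), and the PPAR direct repeat, AGGTCA repeated after 1 base of any kind, in 0 windows and in 11 of all 32851. Shares in the set thus lay near those of all windows, and a match is a description of the letters, not of binding. The sequences run 5′ to 3′ on the strand of the gene, with the C/EBP letters in capitals for *Cidec*, *Lep*, *Pparg* and *Plin1* and the E-box in capitals for *Mlxipl*, and they stop before bases that any annotated exon covers. For *Plin1* this leaves out 1 of the 2 C/EBP places in its window. For the *Cidec* and *Lep* windows shown, the bases after the start site were not found in a GENCODE M21 transcript of the gene. The positions are chr6:113434765-113435014 for *Cidec* (minus strand), chr6:29059971-29060219 for *Lep* (plus), chr6:115421816-115422065 for *Pparg* (plus), chr7:79732904-79733026 for *Plin1* (minus) and chr5:135089640-135089889 for *Mlxipl* (plus).
Cidec: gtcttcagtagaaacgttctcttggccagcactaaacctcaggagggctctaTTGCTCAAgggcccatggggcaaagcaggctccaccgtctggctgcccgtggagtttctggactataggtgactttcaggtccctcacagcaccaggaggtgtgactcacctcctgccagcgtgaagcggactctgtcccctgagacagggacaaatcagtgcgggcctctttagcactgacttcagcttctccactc
Lep: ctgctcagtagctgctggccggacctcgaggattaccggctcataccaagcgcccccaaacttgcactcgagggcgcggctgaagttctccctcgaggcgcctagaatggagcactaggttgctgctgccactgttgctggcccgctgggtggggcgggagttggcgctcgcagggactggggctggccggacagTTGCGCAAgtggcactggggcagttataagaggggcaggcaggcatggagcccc
Pparg: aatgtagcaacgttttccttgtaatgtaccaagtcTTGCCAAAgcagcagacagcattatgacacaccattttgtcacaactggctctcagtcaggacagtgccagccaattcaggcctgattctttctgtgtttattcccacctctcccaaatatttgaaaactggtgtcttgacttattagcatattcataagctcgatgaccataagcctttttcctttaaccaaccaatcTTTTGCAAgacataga
Plin1: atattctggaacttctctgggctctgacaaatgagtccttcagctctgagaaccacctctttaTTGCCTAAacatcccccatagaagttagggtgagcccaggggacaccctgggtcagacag
Mlxipl: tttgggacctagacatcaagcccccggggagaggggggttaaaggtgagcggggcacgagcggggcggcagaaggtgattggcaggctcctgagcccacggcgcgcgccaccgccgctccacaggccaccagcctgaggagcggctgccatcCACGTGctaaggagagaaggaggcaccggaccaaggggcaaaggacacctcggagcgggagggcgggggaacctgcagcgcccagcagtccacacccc

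Both genes of fatty acid delivery were called higher. *Lpl*, whose product lipoprotein lipase frees fatty acids from circulating triglyceride in fat and muscle alike, had 138, 118 and 142 CPM in WT samples and 375, 444 and 432 CPM in KO samples (log2 fold change 1.65, SE 0.0852). *Fabp4*, the fatty acid carrier of adipocytes that endothelium and macrophages also make, had 119.8, 98.6 and 109.5 CPM in WT samples and 222, 265 and 254 CPM in KO samples (log2 fold change 1.18, SE 0.0822). These abundant genes changed less than the adipokines, and their WT samples spread less. Of 7 partners of lipoprotein lipase, 6 were tested, 1 was called higher and 1 lower. *Gpihbp1*, which anchors the lipase on capillaries, had 29.3 ± 0.903 and 41.4 ± 2.24 CPM, a log2 fold change of 0.50 that was under the fold needed for a call (edgeR adjusted p = 3.85e-05). *Vldlr*, a receptor for triglyceride-rich particles, had 38.04 ± 2.75 and 48.2 ± 3.74 CPM and was also not called (log2 fold change 0.34, edgeR adjusted p = 0.00287). *Lipc*, hepatic lipase, was higher in KO (log2 fold change 0.76, edgeR adjusted p = 0.00327) and *Lipg*, endothelial lipase, was lower (log2 fold change -0.96, edgeR adjusted p = 0.000431).

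Among the 8 lipid droplet proteins, 5 were called higher and 3 were not called. *Cidec* (ENSMUSG00000030278.11, chr6:113424634-113435760), which fuses droplets into the single large droplet of white adipocytes, had 1.26, 0.351 and 1.62 CPM in WT samples and 18.5, 18.2 and 18.5 CPM in KO samples. The KO samples were nearly alike and the WT samples were spread, with replicate 2 at 0.244 of the mean of the others. KO was 17.1-fold above WT (log2 fold change 4.05, SE 0.319, and 3.67 without WT replicate 2). *Plin1*, the perilipin that coats adipocyte droplets and guards them from lipases, had 5.54, 2.48 and 8.06 CPM in WT samples and 29.9, 28.97 and 29.2 CPM in KO samples (log2 fold change 2.44, SE 0.303, and 2.10 without WT replicate 2). *Plin4* (ENSMUSG00000002831.14, chr17:56100591-56109803), a perilipin of both adipocytes and muscle fibers, had 5.76, 3.47 and 6.12 CPM in WT samples and 60.97, 86.99 and 93.4 CPM in KO samples. Its log2 fold change was 3.96 (SE 0.214), and 3.76 without WT replicate 2, and KO replicate 1 was the lowest KO sample. *Plin5*, the perilipin of oxidative tissues such as heart and muscle, had 0.549, 0.302 and 0.502 CPM in WT samples and 2.42, 3.71 and 3.61 CPM in KO samples (log2 fold change 2.83, SE 0.230, and 2.63 without WT replicate 2). These 4 genes were the ones of the group with KO more than 5-fold above WT.

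The perilipins that most cells make, *Plin2* and *Plin3*, were not called. *Plin2*, which coats droplets in nearly every tissue, had 37.5 ± 0.903 CPM in WT samples and 51.5 ± 0.359 CPM in KO samples, a 1.37-fold difference with no overlap that was under the fold needed for a call. *Plin3* had 64.5 ± 1.25 CPM in WT samples and 60.3 ± 1.10 CPM in KO samples, and its small log2 fold change of -0.10 (SE 0.0356) was also without overlap. *Cidea*, the CIDE protein of brown fat and of sebaceous glands, had 5.20 ± 0.0424 and 7.98 ± 0.394 CPM, and its log2 fold change of 0.62 (SE 0.0666) lay just past the fold needed. *Bscl2*, which encodes seipin, a protein of droplet formation, had 35.8 ± 2.82 CPM in WT samples and 25.3 ± 1.51 CPM in KO samples, and lay just short of a call on the lower side (log2 fold change -0.50, SE 0.0669). The balance of perilipins therefore differed between genotypes. Per kb of exon, the *Plin4* level was 0.0915, 0.0578 and 0.0984 of the *Plin2* level in the WT samples and 0.715, 1.03 and 1.11 of it in the KO samples, a pair chosen after its values were seen. Of 11 other genes of the droplet and of lipolysis, 10 were tested, 3 were called higher and the other 7 were not called. *G0s2*, an inhibitor of adipose triglyceride lipase, had 20.3 ± 1.69 and 38.2 ± 3.56 CPM (edgeR adjusted p = 1.62e-05). *Fitm1*, a droplet-forming protein of muscle, had 25.7 ± 1.60 and 51.8 ± 4.13 CPM (edgeR adjusted p = 2.44e-06). *Mgll*, which cleaves the last fatty acid from glycerol, had 36.98 ± 1.21 and 58.5 ± 2.21 CPM (edgeR adjusted p = 2.41e-06). *Rab18*, a small GTPase found on droplets, had 113 ± 8.89 and 109 ± 5.08 CPM and was not called (edgeR adjusted p = 0.542).

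The enzymes of triglyceride synthesis were split. *Gpd1*, which makes glycerol phosphate from glycolysis, had 17.98, 11.04 and 21.7 CPM in WT samples and 115, 131 and 131 CPM in KO samples. KO was 7.43-fold above WT (log2 fold change 2.89, SE 0.193, and 2.66 without WT replicate 2), and all KO samples were more than 5 times the highest WT sample. *Agpat2*, the acyltransferase mutated in a form of inherited fat loss, had 13.3, 11.6 and 13.9 CPM in WT samples and 26.9, 26.9 and 26.2 CPM in KO samples (log2 fold change 1.04, SE 0.0687). *Dgat1* and *Dgat2* encode unrelated enzymes for the same last step, the addition of the third fatty acid, and they moved apart. *Dgat1* had 12.5, 12.4 and 13.7 CPM in WT samples and 16.6, 16.9 and 16.6 CPM in KO samples, all KO samples being higher, with a log2 fold change of 0.37 (SE 0.0585) that was under the fold needed for a call. *Dgat2* (ENSMUSG00000030747.5, chr7:99153658-99182719) had 79.03, 124 and 94.3 CPM in WT samples and 24.3, 25.4 and 25.4 CPM in KO samples, all KO samples being lower. WT was 3.96-fold above KO for *Dgat2* (log2 fold change -1.99, SE 0.137, and -1.79 without WT replicate 2, its highest sample). Per kb of exon, *Dgat2* was 6.24 to 9.89 times the level of *Dgat1* in the WT samples and 1.45 to 1.52 times in the KO samples. This pair too was chosen after its values were seen, and the ratio restates the changes just given. Of 11 other enzymes of the pathway, all tested, 2 were called higher and 2 lower. The lower count was 1 with DESeq2 and without WT replicate 3, KO replicate 2 or KO replicate 3, where *Mogat2* was not called. *Lpin1*, the phosphatidate phosphatase of fat and muscle, had 12.2 ± 0.867 and 30.1 ± 2.04 CPM (edgeR adjusted p = 7.49e-07), and *Lpin3*, its relative in other tissues, had 9.53 ± 1.17 and 4.29 ± 0.277 CPM (edgeR adjusted p = 1.45e-05). The most abundant of these enzymes, *Agpat3* and *Gpat4*, were not called (log2 fold changes 0.14 and -0.09).

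Of the 3 triglyceride lipases, only *Pnpla2* was called. It encodes adipose triglyceride lipase, which takes the first fatty acid off stored fat in adipocytes and in muscle fibers, and had 18.02, 19.2 and 21.02 CPM in WT samples and 48.7, 60.7 and 60.1 CPM in KO samples (log2 fold change 1.54, SE 0.0898). *Lipe*, hormone-sensitive lipase, which acts next, had 18.4, 21.2 and 21.4 CPM in WT samples and 27.9, 26.7 and 25.3 CPM in KO samples, higher in every KO sample and under the fold needed (log2 fold change 0.39, SE 0.0677). *Pnpla3*, a relative that remodels droplet lipids, had 2.47, 3.23 and 2.76 CPM in WT samples and 2.70, 3.34 and 3.74 CPM in KO samples, and its genotypes overlapped.

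Of the 9 genes of fatty acid synthesis, 3 were called higher and 6 were not called, the enzymes of the central route from citrate to palmitate among the latter. *Acly*, ATP citrate lyase, had 179 ± 18.9 CPM in WT samples and 128 ± 5.81 CPM in KO samples, lower in every KO sample (log2 fold change -0.48, SE 0.0715). *Acaca*, acetyl-CoA carboxylase of the cytosol, had 50.98 ± 1.95 and 53.8 ± 2.14 CPM with overlap. *Fasn*, fatty acid synthase, had 189, 225 and 214 CPM in WT samples and 263, 214 and 231 CPM in KO samples, also with overlap (log2 fold change 0.17, SE 0.0843). *Me1*, malic enzyme, which supplies NADPH, had 39.1 ± 1.11 and 40.5 ± 1.83 CPM with overlap. *Elovl6*, which extends palmitate to stearate, had 73.96 ± 5.95 CPM in WT samples and 52.7 ± 3.05 CPM in KO samples, lower in every KO sample (log2 fold change -0.49, SE 0.0635).

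*Scd1* (ENSMUSG00000037071.3, chr19:44394455-44407879) was the exception among the abundant genes of this group. It encodes stearoyl-CoA desaturase 1, which makes oleate and palmitoleate from saturated fatty acids. It had 39.4, 39.8 and 43.3 CPM in WT samples and 366, 374 and 393 CPM in KO samples, a 9.25-fold change (log2 fold change 3.21, SE 0.0548, and 3.19 without WT replicate 2). Neither genotype spread much, the highest WT sample being 1.10 times the lowest, where *Adipoq* spread 3.06-fold. *Scd2*, its neighbor on chromosome 19 with the same activity and the main form in the embryo, had 601, 690.4 and 641 CPM in WT samples and 669.9, 594 and 613 CPM in KO samples and overlapped (log2 fold change -0.04, SE 0.0678). Per kb of exon, *Scd1* was 0.0644 to 0.0755 of the *Scd2* level in the WT samples and 0.610 to 0.716 of it in the KO samples. The pair was chosen after its values were seen, and the ratio restates the changes just given. *Thrsp*, encoding Spot 14, a lipogenic protein induced by thyroid hormone, had 4.59, 3.08 and 4.60 CPM in WT samples and 18.9, 20.8 and 20.2 CPM in KO samples (log2 fold change 2.28, SE 0.133, and 2.12 without WT replicate 2). *Elovl3*, an elongase of brown fat and sebaceous glands, had 1.12 ± 0.0284 and 1.74 ± 0.175 CPM and lay just past the fold needed (log2 fold change 0.63, SE 0.118).

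Other genes of fatty acid synthesis were split as well. Of 14 tested, 3 were called higher and 2 lower. The higher ones were *Acacb*, *Acss2* and *Scd4*, with log2 fold changes of 1.46, 1.08 and 0.60. The higher count was 2 with library size alone and without WT replicate 2, WT replicate 3 or KO replicate 3, where *Scd4* was not called. *Elovl1*, an elongase of very long chains for skin ceramides, had 255 ± 50.5 CPM in WT samples and 59.6 ± 0.771 CPM in KO samples (log2 fold change -2.10, edgeR adjusted p = 8.79e-07). *Elovl7*, a related elongase, had 42.2 ± 7.72 and 5.63 ± 0.373 CPM (log2 fold change -2.905, edgeR adjusted p = 1.74e-07). *Fads1*, a desaturase of polyunsaturated fatty acids, had 91.99 ± 1.17 and 119 ± 7.80 CPM and was under the fold needed for a call (edgeR adjusted p = 0.000241). Of 12 genes of cholesterol synthesis, which SREBP2 controls, 1 was called lower and 11 were not called, with a median log2 fold change of -0.32. With library size alone, and without WT replicate 1, WT replicate 3 or KO replicate 1, *Sqle* was called lower too, making 2. The gene called by the fit on all samples, *Dhcr7*, the last enzyme of the pathway, had 70.99 ± 14.5 CPM in WT samples and 36.8 ± 2.63 CPM in KO samples (edgeR adjusted p = 0.000233). The abundant *Hmgcs1* and *Srebf2* were not called (log2 fold changes -0.21 and -0.10).

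The last 3 genes mark brown fat, adrenergic signaling and mature fat or muscle. *Ucp1*, the uncoupling protein of brown adipocytes, was counted 41, 55 and 51 times in the WT libraries and 15, 8 and 14 times in the KO libraries. Its level was thus low in both genotypes and lower in every KO sample (log2 fold change -2.01, SE 0.284, and -1.82 without WT replicate 2). *Adrb3*, the adrenergic receptor of adipocytes, was counted 19, 12 and 22 times in WT and 88, 93 and 103 times in KO (log2 fold change 2.40, SE 0.182, and 2.27 without WT replicate 2). *Car3*, a carbonic anhydrase abundant in both fat and slow muscle fibers, had 493, 427 and 519.6 CPM in WT samples and 1165, 1356 and 1349 CPM in KO samples (log2 fold change 1.43, SE 0.0880). Of 12 other genes of brown fat, 11 were tested, 5 were called higher and the other 6 were not called. The genes called were *Cox8b*, *Kcnk3*, *Ppara*, *Ppargc1a* and *Acot11*. Those not called were *Dio2*, *Prdm16*, *Zic1*, *Lhx8*, *Ebf2* and *Slc27a2*. The part of muscle fibers in the 5 calls was not tested. *Cox8b*, a cytochrome oxidase subunit of brown fat and muscle, had 20.03 ± 1.59 and 50.3 ± 11.1 CPM (edgeR adjusted p = 5.9e-05). *Kcnk3*, a potassium channel, had 1.13 ± 0.203 and 2.84 ± 0.0612 CPM (edgeR adjusted p = 3.87e-05). *Ebf2*, a factor of brown preadipocytes, had 46.004 ± 2.13 and 48.3 ± 1.44 CPM and was not called (edgeR adjusted p = 0.237).

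**Figure D2:**
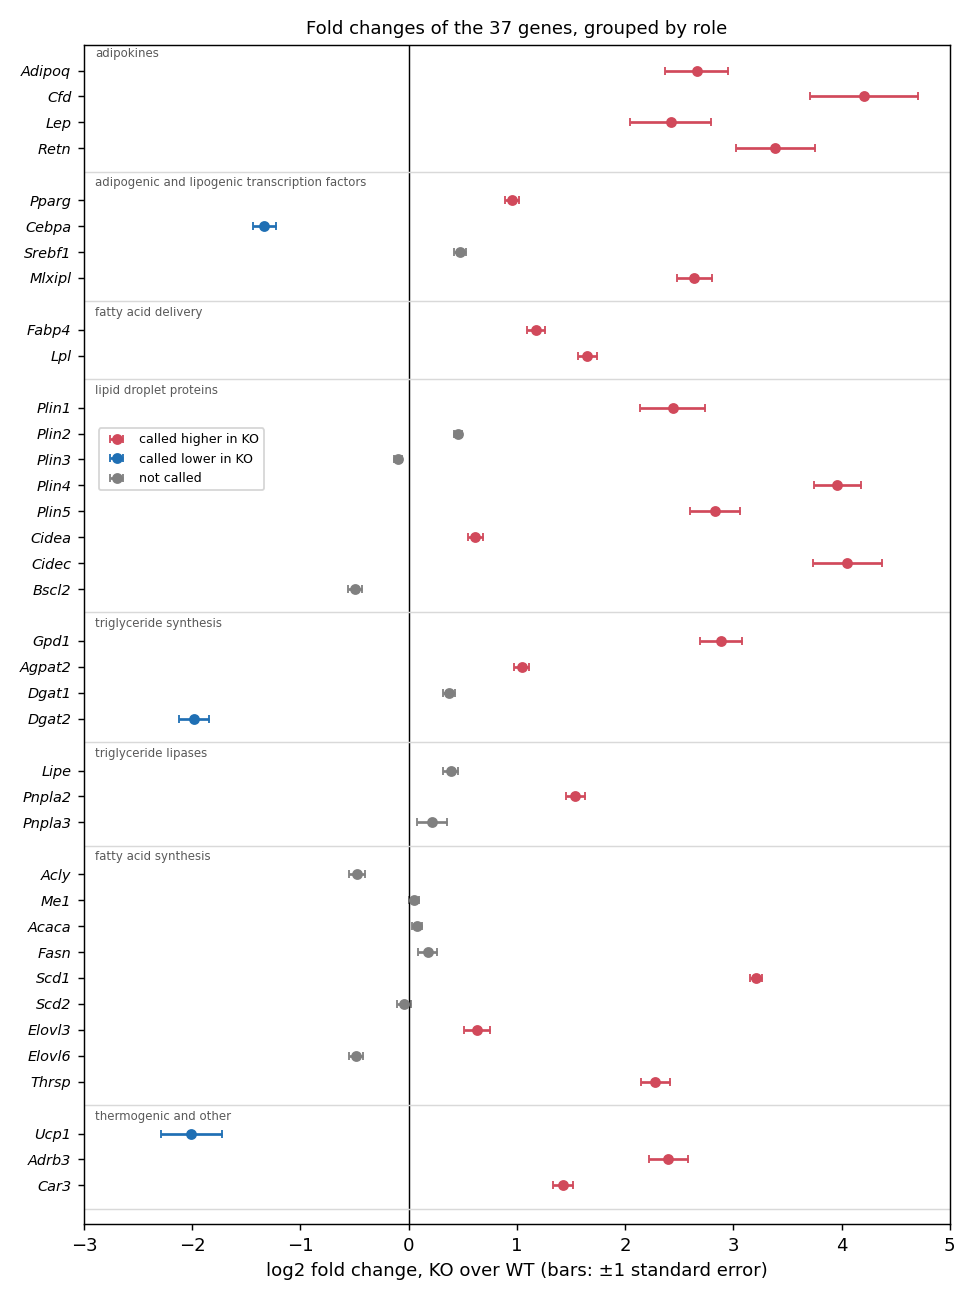
Log2 fold change of KO over WT for each of the 37 genes, with bars of 1 standard error, in the order of their roles; red marks the 21 genes called higher, blue the 3 called lower and gray the 13 not called. *Cfd*, *Cidec* and *Plin4* lie farthest right at 4.21, 4.05 and 3.96, and *Ucp1* and *Dgat2* farthest left at -2.01 and -1.99.

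Levels per kb use the length of all annotated exons of a gene together, which can exceed the length of its RNA. For *Fabp4* this length was 4489 bases, the whole span of the gene, so its level per kb may be understated. The order of genes given here holds for this measure of length only. Per kb of exon, *Car3* was the highest of the 37 genes in both genotypes, at 168 ± 16.6 CPM per kb in WT and 450.3 ± 37.8 in KO, and *Scd2* the second, at 118 ± 8.16 and 115 ± 7.25. After them in WT came *Acly* at 33.9 ± 3.57 and *Dgat2* at 32.2 ± 7.44 CPM per kb, which did not differ beyond their spread, and then *Fabp4* at 24.3 ± 2.36. In KO they were followed by *Scd1* at 77.2 ± 2.87 and *Fabp4* at 55.1 ± 4.94 CPM per kb. *Gpd1* at 42.4 ± 3.05, *Lpl* at 39.8 ± 3.49 and *Cfd* at 38.3 ± 8.95 CPM per kb came next and did not differ beyond their spread. Leptin and *Ucp1* were at the low end, *Lep* ranking 37 in WT and *Ucp1* ranking 37 in KO. *Scd1* moved from rank 14 to rank 3, *Cfd* from 25 to 7 and *Dgat2* from 4 to 22. Proportions between the adipocyte markers differed from pair to pair. *Plin1* was 0.219 to 0.233 of *Adipoq* per kb in the WT samples and 0.184 to 0.214 in the KO samples, and WT replicate 2, which had the least of both, did not stand apart in this ratio. *Cidec* was 0.0776 to 0.126 of *Adipoq* per kb in WT and 0.289 to 0.330 in KO, and *Cfd* was 0.0970 to 0.560 of it in WT and 0.937 to 1.33 in KO. These pairs were chosen after their values were seen.

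**Figure D3:**
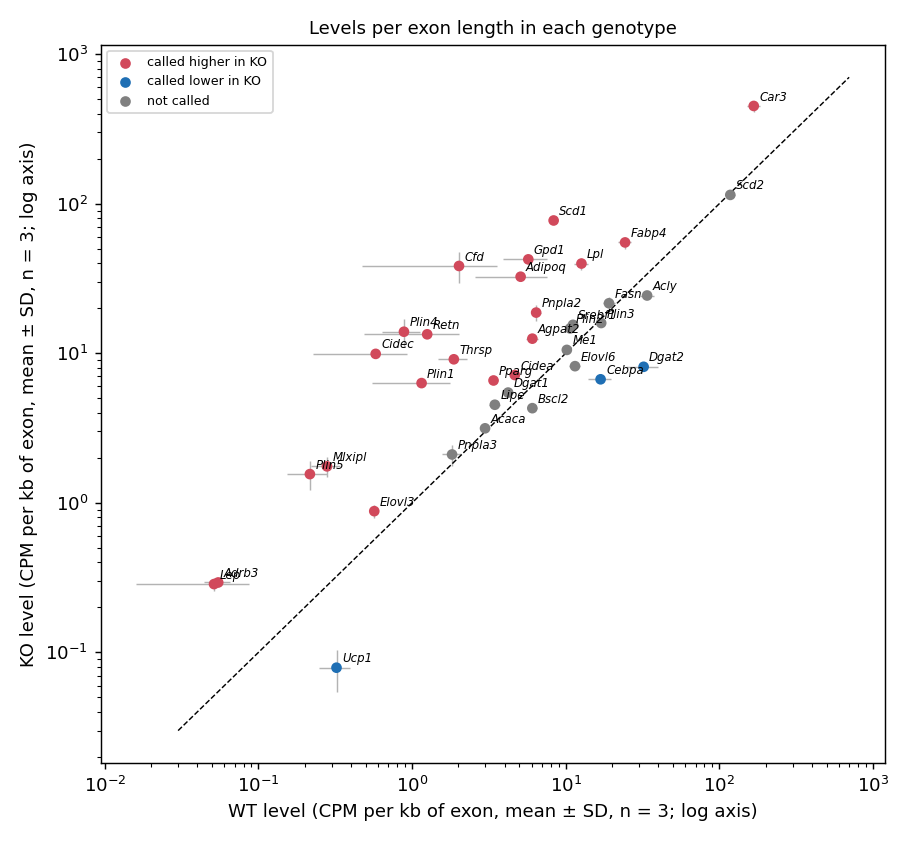
Mean level per kb of exon in WT (x axis) against KO (y axis), both in CPM per kb on log axes, with SD bars (n = 3) and a dashed line of equal levels; red, blue and gray mark genes called higher, called lower and not called in KO. *Scd1* lies far above the line at 8.35 in WT and 77.2 in KO, while *Scd2*, *Me1* and *Acaca* lie near it.

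Within a genotype, the samples were not equal for these genes. WT replicate 2 was the lowest WT sample for 19 of the 37 genes (51.4%), where it was the lowest for 33.3% of all genes tested. It was the lowest for 17 of the 21 genes called higher, the highest for all 3 genes called lower and the highest for 10 of the 13 genes not called. In all it was the highest for 14 of the 37 genes (37.8%), near the 38.4% of all genes tested. KO replicate 1 was the lowest KO sample for 20 of the 37 genes (54.1%, and 38.4% of all genes tested), and for 16 of the 21 called higher. These samples were singled out after their values were seen, and the counts are a description. The spread was uneven among genes. WT replicate 2 stood at 0.0811 of the mean of the other WT samples for *Cfd*, 0.151 for *Lep*, 0.217 for *Retn* and 0.244 for *Cidec*, and at 0.964 for *Scd1* and 0.982 for *Pnpla2*. For KO replicate 1 the widest gaps below the others were at *Cfd* (0.650 of the mean of the other KO samples), *Plin5* (0.661) and *Plin4* (0.676). The 6 adipocyte markers *Adipoq*, *Cfd*, *Plin1*, *Cidec*, *Lep* and *Retn* summed to 19.8, 7.03 and 25.6 CPM in the WT samples and 137, 158 and 155 CPM in the KO samples. All 6 were called higher and were picked with earlier results known, so the gap between these sums is a description too.

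**Figure D4:**
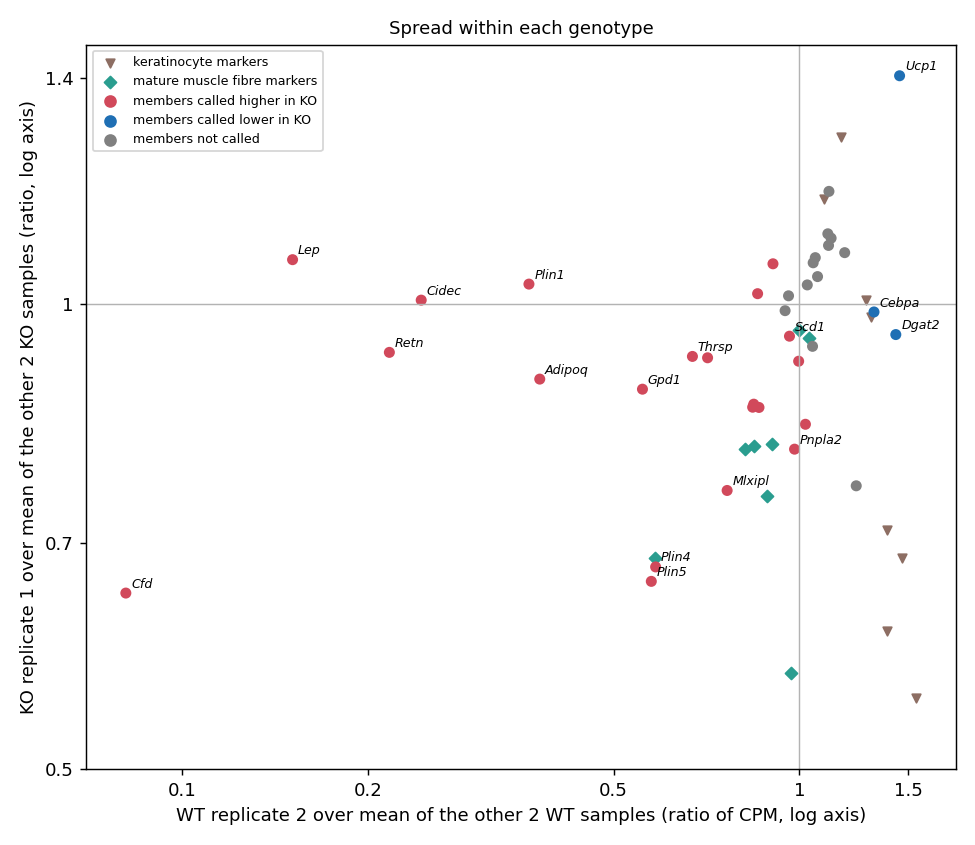
Ratio of WT replicate 2 to the mean of the other WT samples (x axis) against the ratio of KO replicate 1 to the mean of the other KO samples (y axis), both log axes, for the 37 genes (red called higher, blue lower, gray not called in KO) and for keratinocyte (brown triangles) and mature muscle fiber markers (green diamonds). *Cfd* lies lowest on the x axis at 0.0811, *Scd1* lies near 1 on both axes, and all 8 keratinocyte markers lie right of 1.

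Markers of other cells in dissected leg muscle moved with genotype too. All 8 keratinocyte markers were lower in KO, with a summed level of 16211, 24159 and 18067 CPM in the WT samples and 902, 1015 and 973 CPM in the KO samples. *Krt1* and *Krt10*, keratins of the upper epidermis, had log2 fold changes of -5.47 and -6.20 (edgeR adjusted p = 1.98e-07 and 3.14e-07). *Ivl*, encoding involucrin of the cornified envelope, had 312 ± 74.3 and 6.79 ± 1.38 CPM (edgeR adjusted p = 1.05e-07). WT replicate 2 was the highest WT sample for all 8 of them, as it was for *Cebpa*, *Dgat2* and *Ucp1* and for 38.4% of all genes tested. Of 6 sebaceous gland markers, 4 were tested and 3 were lower in KO, with sums of 42.5, 62.5 and 48.7 CPM in WT samples and 14.2, 13.7 and 13.4 CPM in KO samples. The fourth tested, *Mc5r*, a melanocortin receptor, was higher in every KO sample at 2.22 ± 0.167 and 3.13 ± 0.356 CPM and under the fold needed for a call (log2 fold change 0.49, edgeR adjusted p = 0.00546). *Dgat2l6* and *Awat1* were not tested and had 4 to 16 counts in each library. Most of the summed level in the WT samples was *Far2*, which makes the fatty alcohols of sebum waxes and had 40.6 ± 10.4 and 5.59 ± 0.248 CPM (edgeR adjusted p = 1.03e-06), and *Krt79* and *Awat2* had log2 fold changes of -0.76 and -0.85. Skin expresses *Cebpa*, *Dgat2*, *Elovl6* and *Acly* among others, and the part of skin in their lower levels in KO was not tested. *Cidea* and *Elovl3*, described above as genes of sebaceous glands too, were called higher in KO (log2 fold changes 0.62 and 0.63). All 8 mature muscle fiber markers were higher in KO, with sums of 2219.6, 1941 and 2182 CPM in the WT samples and 4912, 6387 and 6261 CPM in the KO samples. *Pvalb*, encoding parvalbumin of fast fibers, had a log2 fold change of 4.19 (edgeR adjusted p = 4.41e-07), and *Ckm*, muscle creatine kinase, one of 1.27 (edgeR adjusted p = 1.98e-05). *Myh1*, a fast myosin heavy chain, and *Atp2a1*, the calcium pump of fast fibers, had log2 fold changes of 3.10 and 1.54. KO replicate 1 was the lowest KO sample for all 8 of these markers. Muscle fibers also express *Plin4*, *Plin5*, *Pnpla2*, *Lpl*, *Gpd1* and *Car3*, and the part of fiber maturation in their higher levels was not tested.

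Of the 8 markers of fibro-adipogenic progenitors, the cells from which adipocytes of muscle arise, 1 was called higher and 7 were not called, with a median log2 fold change of 0.22. Their summed level was 1279, 1357 and 1343 CPM in the WT samples and 1602, 1556 and 1538 CPM in the KO samples. The abundant *Lum* and *Cd34* had log2 fold changes of 0.19 and 0.32. The gene called was *Ly6a*, encoding Sca-1, with 24.7 ± 3.03 and 58.7 ± 4.40 CPM (edgeR adjusted p = 3.05e-06). The 8 endothelial markers had sums of 724, 738 and 757 CPM in WT samples and 833, 855 and 873 CPM in KO samples. By edgeR 0 of them were called, 7 had an unadjusted p under 0.05 with higher levels in KO, and DESeq2 and limma-voom each called 0. The abundant *Cdh5* and *Pecam1* had log2 fold changes of 0.16 and 0.38. Of 8 macrophage markers, 6 were called higher, with sums of 289, 293 and 302 CPM in WT samples and 540.2, 487 and 487 CPM in KO samples. *Cd163*, a scavenger receptor of resident macrophages, had 7.54 ± 0.578 and 28.3 ± 1.20 CPM (edgeR adjusted p = 9.54e-08), and the more abundant *Mrc1* and *Lyve1* had log2 fold changes of 0.91 and 0.90. Of 8 liver markers, 5 were tested, with sums of 17.04, 1.16 and 4.98 CPM in WT samples and 7.04, 3.44 and 3.001 CPM in KO samples, and *Serpina1a* was at or near 0 in every sample. By edgeR 0 of them were called, 0 had an unadjusted p under 0.05, and DESeq2 and limma-voom each called 0. This count rested on single libraries, since without WT replicate 2 edgeR called 3 of them lower (*Afp*, *Apob* and *Ttr*) and without WT replicate 1 it called 1 higher (*Alb*). WT replicate 1 had the highest sum, with 1120, 31 and 326 counts of *Afp*, the fetal serum protein, in the WT libraries and 328, 153 and 145 in the KO libraries, and 244, 22 and 97 and 192, 86 and 65 counts of *Apoa1*. The part of macrophages and of the other cells in the levels of *Fabp4*, *Lpl* and *Plin2*, which they also express, was not tested.

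Genes of adipocytes outside the set were counted in the same fit, and their lists too were chosen with earlier results of these data known. Of 12 other adipocyte genes, 10 were called higher and 2 were not called, with a median log2 fold change of 1.08. *Cd36*, a fatty acid transporter of fat, muscle and endothelium, had 116 ± 7.05 and 209.6 ± 18.3 CPM (edgeR adjusted p = 9.52e-06). *Aoc3*, an amine oxidase of adipocytes and smooth muscle, had 53.9 ± 2.35 and 96.7 ± 6.04 CPM (edgeR adjusted p = 1.92e-06). The largest changes were in *Pck1*, which makes glycerol phosphate precursors in fat, and in *Mrap*, an accessory protein of the melanocortin receptor of fat and adrenal gland. *Pck1* had 0.686, 0.0605 and 0.606 CPM in WT samples and 5.86, 6.51 and 7.06 CPM in KO samples (log2 fold change 3.79, SE 0.392, edgeR adjusted p = 4.83e-05), again with WT replicate 2 the lowest. *Mrap* had 1.22, 0.593 and 1.17 CPM in WT samples and 6.38, 6.69 and 6.20 CPM in KO samples (log2 fold change 2.67, SE 0.197, edgeR adjusted p = 5.04e-06). Of 14 other regulators of adipogenesis, 3 were called higher and 2 lower. The higher ones were *Cebpd*, *Klf15* and *Nr1h3*, and the lower ones were *Cebpb* and *Gata3*. The C/EBP genes *Cebpd* and *Cebpb* thus went apart, with log2 fold changes of 0.80 and -0.85. *Klf15*, which acts with C/EBP factors in fat and muscle, had 5.31 ± 0.247 and 12.4 ± 1.43 CPM (edgeR adjusted p = 5.9e-06). *Gata3*, a factor that restrains adipogenesis and is expressed in skin, had 23.9 ± 4.43 and 7.83 ± 0.785 CPM (edgeR adjusted p = 7.97e-06). *Dlk1*, the preadipocyte factor that developing muscle also makes, had 1899.8 ± 107 and 2481 ± 158 CPM, and *Rxra*, the partner of PPARs, had 135 ± 11.3 and 103 ± 2.44 CPM. Both passed the adjusted p (edgeR adjusted p = 0.00191 and 0.000526) and not the fold. Over all 93 genes of these related lists, 90 were tested, 27 were called higher and 8 lower, and the median log2 fold change was 0.18.

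**Figure D5:**
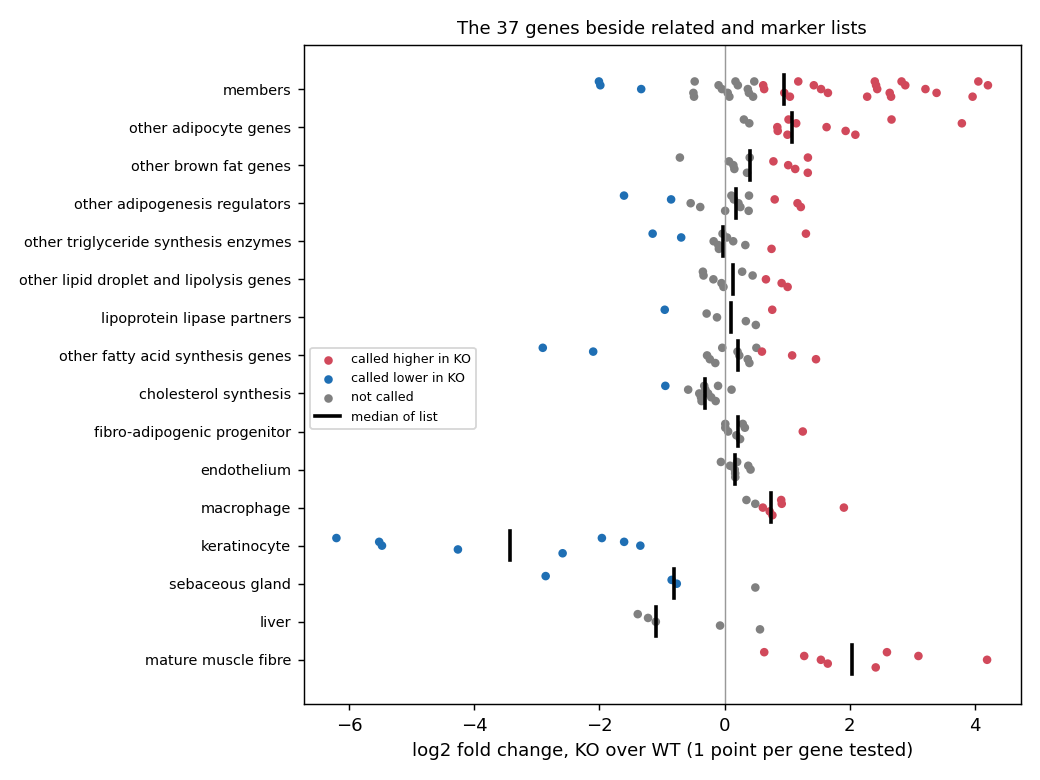
Log2 fold change of KO over WT for each gene tested, 1 point per gene and 1 line per list, with red for genes called higher in KO, blue for lower, gray for not called and a black bar at the median of the list. The medians are 0.95 for the 37 genes, 1.08 for other adipocyte genes, -0.32 for cholesterol synthesis, -3.42 for keratinocyte markers and 2.03 for mature muscle fiber markers.

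Some of the 37 genes share stretches of sequence with other genes, and the strand and the treatment of shared reads in the counting are not given in the sources used here. Of the 100-base stretches of their exons, the share also present in transcripts of another gene was 23.7% for *Acaca*, 14.6% for *Me1*, 14.2% for *Adrb3*, 7.14% for *Lipe*, 6.96% for *Bscl2* and 6.22% for *Gpd1*. It was 2.58% for *Scd1*, over 4 other genes with *Scd3* sharing most, and 0.879% for *Scd2*, over 2 other genes with *Scd1* sharing most. For 23 genes no stretch was shared, among them *Adipoq*, *Cfd*, *Cidec*, *Plin1* and *Plin4*.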

How the data were processed

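RNA was sequenced from leg muscle of 3 WT and 3 *SYISL* KO fetuses or pools at embryonic day 18.5. According to the submitters' processing notes, the authors used Trim Galore 0.6.6, HISAT2 2.2.1, featureCounts 2.0.1 and build mm10. The roles of these steps are those of the study's methods, while annotation, strandedness and the counting of reads or of pairs are not given in the sources used here. The authors deposited unnormalized counts per gene, as whole numbers. Counts per sample and for the series differed in 0 values. Of 56262 genes, 18920 had no count, and 55141 IDs matched GENCODE M21 without regard to version.

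In R 4.3.3, edgeR 4.0.16 was run with filterByExpr, TMM and the quasi-likelihood F-test on genotype, with Benjamini-Hochberg adjustment over 22071 genes. It replaced DESeq2, the study's tool, which is an alternative. CPM used TMM-scaled library sizes, and levels per kb used the union of exons. The biological coefficient of variation was 7.68%. The tests were first tested on simulated data. Depth was 82054811 to 102233181 counts per sample, with no copy of a library among the replicates.

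Genes were named by rule. All 37 genes were named, and from each other list the 2 genes with the highest mean CPM and the 2 called genes with the largest absolute log2 fold change. Further genes were named where they show what a count rests on. The genes, lists and rule were chosen with earlier results of these data known. Same-numbered WT and KO samples are not said to share a litter, and their deviations from the group means correlated at -0.20, -0.13 and 0.05, so they were not paired. The alternatives were other scaling (RLE, upper-quartile, library size), other filters, DESeq2 1.42.0, limma-voom 3.58.1, a replicate block and leaving out each sample. Promoter windows are from RefSeq (GRCm38.p6), and protein sequences were not used here.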

Additional observations from a re-analysis of the deposited data

How the results depend on the processing

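Of the 37 genes, 21 were called higher and 3 lower under every alternative except these. With library size alone 19 were called higher, since *Cidea* (0.55) and *Elovl3* (0.56) no longer passed the fold, and with at least 10 counts in every sample 20 were higher and 2 lower, since *Lep* and *Ucp1* were not tested there. The median log2 fold change of the 37 genes was 1.02 with upper-quartile factors and 0.89 with library size alone, and 0.91 to 0.998 when each sample was left out in turn. The median of all genes lay between -0.073 and 0.064 over the scalings. Of the 37 genes, the sign turned only for *Me1* (-0.019 with library size alone) and *Scd2* (0.027 with upper-quartile factors and -0.0904 to 0.00912 over the fits that leave out 1 sample, the highest without WT replicate 2), which were not called. *Rab18* turned to 0.018 with upper-quartile factors and ran from -0.0897 to 0.016 with 1 sample left out, the highest without WT replicate 1. *Afp* turned to 0.29 without WT replicate 1 and was called lower, at -1.76, without WT replicate 2. *Apoa1* turned to 0.25 with limma-voom, 0.10 with the replicate block, 0.97 without WT replicate 1, 0.096 without KO replicate 2 and 0.22 without KO replicate 3, and was -0.68 without KO replicate 1. The causes were not tested. The replicate block called 21 of the 37 genes higher and 3 lower, and 1744 and 1777 of all genes where the fit without it called 1835 and 1852, and it changed no call of a named gene. Depth limits *Lep*, *Ucp1* and *Adrb3*, which had from 3 to 103 counts in a library.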
